A study of Mus musculus with 3 samples.

Results

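Transcripts of 10 genes best known from pluripotent cells were measured in mouse embryos of a single stage, the early headfold. The genes were *Pou5f1*, *Nanog*, *Sall4*, *Klf4*, *Esrrb*, *Zfp42*, *Utf1*, *Lin28*, *Dppa5*, and *Fbxo15*. They were taken by symbol from a table of 30854 gene symbols, and all 10 were present in it, 2 of them under older names (*Lin28* for *Lin28a*, *Dppa5* for *Dppa5a*). Total RNA came from embryonic regions, cut from wild-type embryos of the early headfold (EHF) stage, and was hybridized to 3 Illumina Mouse-6 bead arrays. The labels give the strain as Cd-1, where the methods of the study name ICR mice, and the tissue as embryo, with no treatment or altered allele, and the 3 arrays, replicates 1 to 3, make up the only group. Whether each array held a single embryo or a pool is not given in the sources used here, so the spread between arrays may be technical. Each gene was therefore compared with the background of its own array. No other stage or tissue was measured, and the number of arrays limits the precision. The region was cut from the conceptus as a whole, and fewer cells with a transcript cannot be told apart from less transcript per cell.

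In the blastocyst and in embryonic stem (ES) cells, the transcription factors OCT4 (*Pou5f1*), NANOG, and SOX2 sustain each other and a wider network that keeps cells able to form every tissue of the body. Naive factors such as *Klf4*, *Esrrb*, and *Zfp42* mark the preimplantation state and are lost around implantation, whereas *Pou5f1* persists through the epiblast and is shut down as the germ layers form. Primordial germ cells, set aside in the posterior embryo, keep or regain parts of the network.

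The stretch before the transcription start of 3 of these genes is shown because sequence letters bound by the network's own factors, and by repressors measured on the same arrays, can be read in it. Sequences are the 250 bases before the start in RefSeq, build GRCm38.p6, written along the strand of the gene, with matches to 4 motifs in capitals. The motifs, searched on both strands, were the octamer core ATGCAAA, the SOX motif ACAATG, the nuclear receptor core AGGTCA, and the GC box GGGCGG, which share no letters in these windows.
*Pou5f1* (chr17:35505782-35506031, plus strand): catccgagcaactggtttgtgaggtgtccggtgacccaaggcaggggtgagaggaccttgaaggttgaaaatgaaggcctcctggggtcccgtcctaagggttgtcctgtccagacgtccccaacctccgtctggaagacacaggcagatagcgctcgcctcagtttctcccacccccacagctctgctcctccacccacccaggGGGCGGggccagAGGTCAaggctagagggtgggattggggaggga
*Nanog* (chr6:122707239-122707488, plus strand): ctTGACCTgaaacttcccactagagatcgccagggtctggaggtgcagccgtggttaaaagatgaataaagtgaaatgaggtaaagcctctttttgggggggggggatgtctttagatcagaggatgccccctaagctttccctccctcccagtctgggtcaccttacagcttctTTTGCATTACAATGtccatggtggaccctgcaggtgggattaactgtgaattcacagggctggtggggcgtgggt
*Zfp42* (chr8:43307010-43307259, minus strand): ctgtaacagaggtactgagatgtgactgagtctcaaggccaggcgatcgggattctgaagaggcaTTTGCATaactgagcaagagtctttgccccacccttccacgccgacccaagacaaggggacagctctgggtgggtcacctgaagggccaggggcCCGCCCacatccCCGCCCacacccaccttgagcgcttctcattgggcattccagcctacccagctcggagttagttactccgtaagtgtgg

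An octamer core was found in 4.12% of 32851 such windows, a SOX motif in 10.7%, a nuclear receptor core in 14.0%, and a GC box in 32.7%. *Nanog* held an octamer core 75 bases before its start and, 1 base further on, a SOX motif at 67 bases. These letters with any base between them, TTTGCATNACAATG on either strand, occurred in 2 windows, both of them entries of *Nanog*. The order and spacing searched were those of *Nanog*, so its own match was given in advance. Looser forms of the motifs and other spacings were not searched, so the count does not show that such a pair is particular to *Nanog*. *Zfp42* held an octamer core 185 bases before its start without a SOX motif, and *Pou5f1* a nuclear receptor core at 33 bases next to a GC box at 45 bases. *Nanog* also held a nuclear receptor core at 248 bases, and *Lin28* a SOX motif at 96 bases. No window was available for *Sall4* or *Dppa5*, and *Fbxo15* was left out of the search. *Pou5f1*, *Nanog*, and *Esrrb* had 2 entries each, of which the one furthest upstream was used. Of the other 7 genes, *Klf4* and *Utf1* had 4 GC boxes each and *Zfp42* 2. The *Klf4* window was the richest in G and C among the 7 (74.0% of bases, 32 CpG), and that of *Nanog* the poorest (52.0%, 3 CpG). A match of letters does not show that a factor was bound.

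Detection of these transcripts was split. On Illumina arrays the detection p of a probe is the fraction of negative-control probes of that array that were at least as bright, and a gene was called above background where this value lay under 0.01 on every array. *Pou5f1*, *Lin28*, *Dppa5*, and *Utf1* met this criterion, 4 of 10 genes, against 20.6% of all symbols. Another 4, *Nanog*, *Sall4*, *Esrrb*, and *Fbxo15*, met it on some arrays, and *Klf4* and *Zfp42* on none. All 4 genes with mixed calls are measured by several probes, as are 8 of the 10 genes in all. Of the 30854 symbols, by contrast, 22003 have 1 probe, so the shares compare unlike mixes of probe numbers. The share among symbols with several probes was not measured. The table combines the probes of a gene into 1 signal and 1 detection p. Deposited signals are given on the log2 scale throughout. The signal at which a symbol with 1 probe passed detection, here called the background signal, was 6.69, 6.66, and 6.58 for replicates 1, 2, and 3. For genes with several probes it is a reference line and not their own detection limit. The background level used with limma below also comes from symbols with 1 probe.

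**Figure D1:**
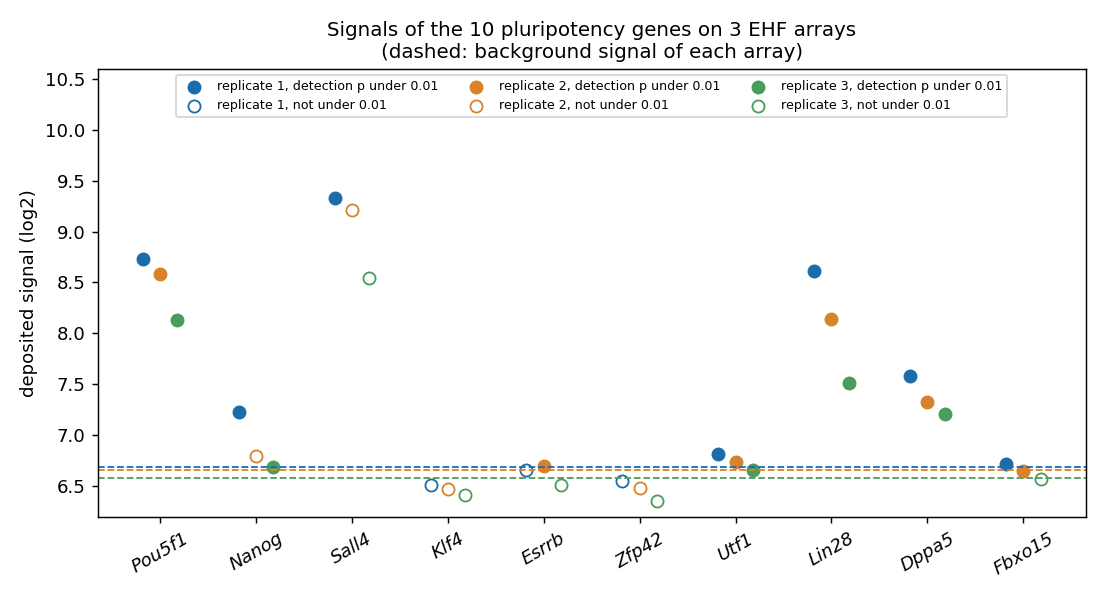
Deposited log2 signal (vertical axis) of the 10 genes on replicates 1 to 3, with filled points for a detection p under 0.01 and dashed lines for the background signal of each array. *Pou5f1*, *Lin28*, and *Dppa5* were filled and far above the lines on every array, *Sall4* was bright but filled on replicate 1 alone, and *Klf4* and *Zfp42* lay below the lines.

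Among the core factors, *Pou5f1* was clearly present. *Pou5f1* encodes OCT4, the POU-domain factor without which a pluripotent inner cell mass does not form. Its log2 signals were 8.73, 8.58, and 8.13 on replicates 1, 2, and 3, with a detection p of 0 on each. These signals were 1.55 to 2.05 above the background signal of the array. A detection p of 0 for a gene with several probes means that none of its 2 probes was exceeded by a negative control.

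To attach an error, background was removed with normexp, arrays were quantile normalized, and the level of each gene above the background level of its array was tested with limma (one-sided) across all symbols. On this scale *Pou5f1* stood 3.31 above background (standard error 0.15, n = 3), with arrays at 3.44, 3.40, and 3.07. Before the background level was subtracted, the 3 normalized levels of *Pou5f1* had an SD of 0.05. The median SD of the 6357 symbols above background was 0.17, so this transcript varied little between the arrays on that scale. The deposited signals of *Pou5f1*, not normalized between arrays, had an SD of 0.31. The fit gave every symbol the same standard error and treated the spread as known, which makes its p-values very small. The adjusted p of *Pou5f1* ranged from 6.89e-183 to 0.000403 over 8 alternatives and passed in each.

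*Nanog*, which encodes the homeodomain factor of the naive and germ cell states and is known to return in the posterior epiblast during gastrulation, was close to background. Its log2 signals were 7.23, 6.80, and 6.69 on replicates 1, 2, and 3. Replicate 1 was the highest and stood 0.54 above the background signal, whereas the lowest difference among the arrays was 0.11. The detection p was 5.71e-07, 0.0464, and 0.000185, so that replicate 2 missed the threshold. On replicate 1 these values correspond to a sum of the detection p of its 2 probes of 0.00107, 1 step of 936, so both probes were above background there. On replicate 2 the sum was 0.304, and at least 1 probe had a p of 0.152 or more.

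The normalized *Nanog* level was 0.69 above background (standard error 0.15, n = 3; adjusted p = 1.05e-05, limma), with arrays at 1.23, 0.42, and 0.41. Replicate 1 set much of this value, which was 0.42 without it (adjusted p = 0.0511, limma, where 8 alternatives spanned 8.45e-12 to 0.112). The call was also lost with median scaling, at 0.74 (adjusted p = 0.103), and on the deposited signals, at 0.26 (adjusted p = 0.112). Its SD over arrays, 0.35, was reached by 11.3% of the symbols above background. Of the 7 germ layer markers above background on every array, 5 were highest on replicate 1, *T*, *Mixl1*, *Mesp1*, *Tbx6*, and *Cer1*. The deposited signals of *Mixl1* and *Cer1* on replicate 3, 6.559 and 6.562, were below the background signal of that array. *Sox17* was nearly equal on replicates 1 and 2, and the somite factor *Meox1* was lowest on replicate 1. Genes of other lists, such as *Dnmt3b* and *Gbx2*, were also highest on replicate 1, while others, such as *Otx2* and *Sall3*, were not. The share of all symbols highest on replicate 1 was not measured. The order of the germ layer markers was noticed after the values were seen. Normalized levels on replicates 1, 2, and 3 were 10.42, 9.98, and 9.83 for *T*, 6.41, 5.50, and 5.48 for *Mesp1*, and 6.86, 6.19, and 6.42 for *Tbx6*. They were 6.35, 6.36, and 6.17 for *Sox17*, 7.79, 8.03, and 8.51 for *Meox1*, and 5.91, 5.23, and 5.48 for *Nanog*. With 3 arrays of 1 group no shared pattern can be measured, so a relation between these genes was not tested.

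*Sall4* encodes a zinc-finger factor that binds with OCT4 in ES cells and is also known from later mesoderm and limb tissue. It was bright and yet missed detection. Its log2 signals were 9.33, 9.21, and 8.55 on replicates 1, 2, and 3, which is 1.97 to 2.65 above the background signal. The detection p was 2.86e-05, 0.0221, and 0.0899, under the threshold on replicate 1 alone. Since the signal is an average over 3 probes, the brightest probe was at least as bright as the average on every array. The sum of the 3 probe p-values, by contrast, was 0.0556, 0.510, and 0.814, so that on replicate 3 at least 1 probe had a p of 0.271 or more. On replicate 1 at least 1 probe had a p of 0.0185 or more, although the combined value passed. The *Sall4* probes thus differed in detection on every array, most clearly on replicates 2 and 3. Its normalized level was 3.97 above background (standard error 0.15, n = 3), with arrays at 4.17, 4.15, and 3.60. The adjusted p from limma was 0.000456 or less under each of 8 alternatives (lowest 9.26e-288).

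**Figure D2:**
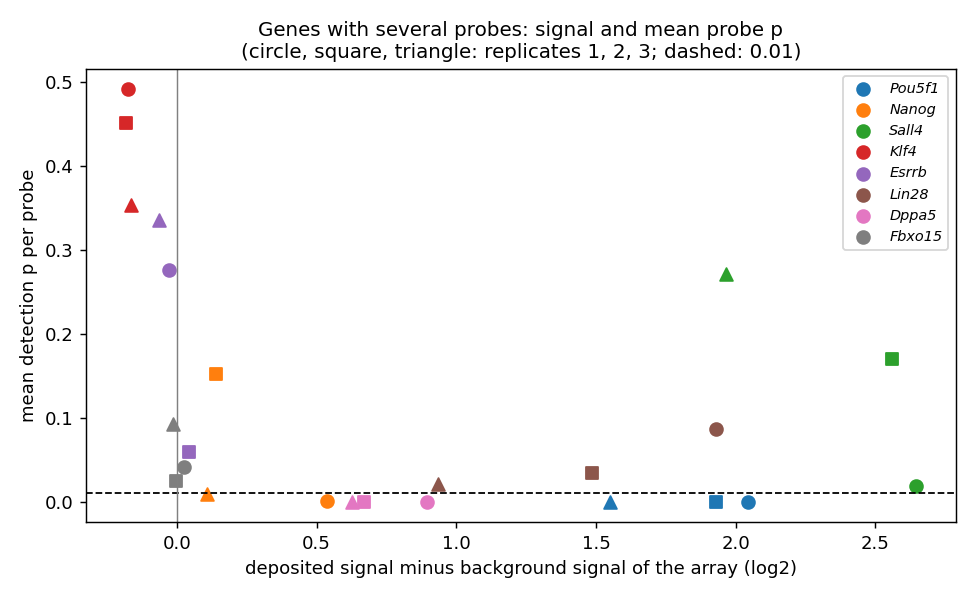
Mean detection p per probe (vertical axis, the sum implied by the combined p over the number of probes) against the deposited signal minus the background signal of the array (horizontal axis, log2) for the 8 genes with several probes, with circles, squares, and triangles for replicates 1, 2, and 3. *Pou5f1* and *Dppa5* lay at 0, whereas *Sall4* reached 0.271 at a signal 1.97 above background, and *Klf4* lay left of the background line.

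The naive factors were at background. *Klf4*, a Krüppel-like zinc-finger factor used in reprogramming, gave 6.51, 6.47, and 6.42 (log2 signal, replicates 1 to 3), all below the background signal by 0.16 to 0.18. Its detection p was 0.481, 0.390, and 0.199, and the mean over its 3 probes lay between 0.354 and 0.491. *Zfp42* (REX1), a zinc-finger gene derived from *Yy1* and the classical reporter of naive cells, had log2 signals of 6.55, 6.48, and 6.36, each below the background signal. The probe of *Zfp42* had a detection p of 0.281, 0.388, and 0.635. The octamer core printed above for *Zfp42* therefore stood in a window whose transcript was not detectable on these arrays.

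*Esrrb*, an orphan nuclear receptor of naive cells that is also known from the extraembryonic ectoderm, gave log2 signals of 6.66, 6.70, and 6.52 for replicates 1 to 3. Replicate 2 was 0.04 above the background signal and the others were below it. The detection p was 0.153, 0.00691, and 0.226. On replicate 2 the mean p of its 2 probes was 0.0588, so the combined value passed although at least 1 probe did not. Normalized levels of *Klf4*, *Zfp42*, and *Esrrb* were -0.52, -0.54, and -0.08 relative to background, and limma called none of them, with these settings or in 8 alternatives each. *Klf4* and *Zfp42* were thus not detectable at this brightness, which does not show that they were absent.

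The RNA-binding genes were above background. *Lin28* encodes the protein that blocks maturation of the let-7 microRNAs. Its log2 signals were 8.61, 8.14, and 7.51 on replicates 1, 2, and 3, and its detection p was 0.00210, 0.000621, and 0.000454. The signal was thus lowest on the array where detection was strongest. *Lin28* is averaged over 4 probes, whose p-values summed to 0.347, 0.136, and 0.0844, so at least 1 probe on each array had a p above 0.01. Its normalized level was 2.77 above background (standard error 0.15, n = 3), with arrays at 3.30, 2.84, and 2.16. The SD of 0.38 was the largest of the 10 genes and was reached by 8.38% of the symbols above background.

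*Dppa5* (ESG1), which encodes a small KH-domain protein of ES and germ cells, gave log2 signals of 7.58, 7.33, and 7.21 for replicates 1 to 3, with a detection p of 0 on each. All arrays were above the background signal by 0.63 or more. The normalized level was 1.69 above background (standard error 0.15, n = 3), with arrays at 1.86, 1.58, and 1.64, and the call held in 8 of 8 alternatives. The RefSeq gene table lists 2 pseudogenes of *Dppa5*, 5 of *Pou5f1*, 2 of *Nanog*, and 1 of *Zfp42*, and a share of such copies in the probe signals was not tested.

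*Utf1* and *Fbxo15*, both known as targets of OCT4 and SOX2, lay at the edge of detection. *Utf1* encodes a chromatin-bound factor of undifferentiated cells. Its log2 signals were 6.82, 6.74, and 6.66 on replicates 1, 2, and 3, which exceeded the background signal by 0.08 to 0.13. The detection p of its 1 probe was 0.00107, 0.00214, and 0, at most 2 of 936 steps. The normalized level of 0.31 above background was not called by limma (adjusted p = 0.0821, with 0.000152 to 0.317 over alternatives). Detection and the limma test thus gave different answers for *Utf1*. Without replicate 3 it was called, at 0.30 (adjusted p = 0.0213, limma).

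*Fbxo15* encodes an F-box protein of an SCF ubiquitin ligase and served as an early reporter of reprogramming. Its log2 signals were 6.71, 6.65, and 6.57 on replicates 1, 2, and 3, within 0.03 of the background signal on each array. The detection p was 0.00338, 0.00116, and 0.0173, which left out replicate 3. On replicate 2 the gene passed with a signal just below the background signal, which is taken from symbols with 1 probe. The sum over its 2 probes was 0.0823, 0.0481, and 0.186, so at least 1 probe on each array had a p above 0.01. Its normalized level was 0.00 relative to background (standard error 0.15, n = 3) and was not called by limma.

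By limma 5 of the 10 genes were above background, *Sall4*, *Pou5f1*, *Lin28*, *Dppa5*, and *Nanog*, against 25.7% of all symbols. The median level of the 10 genes was 0.50 above background, and that of all symbols was -0.46. In a setting chosen after the data had been seen, the mean signal had to exceed the background signal on every array. It was met by 6 genes, *Pou5f1*, *Nanog*, *Sall4*, *Utf1*, *Lin28*, and *Dppa5*, against 26.3% of all symbols. With other thresholds the count was 6 at a detection p under 0.05 (24.7% of all symbols), 2 under 0.001 (17.0%), 6 with detection on at least 2 arrays (25.6%), and 8 on at least 1 array (33.0%). Leaving out replicate 1, 2, or 3 gave 4 (21.1%), 5 (21.6%), and 5 (24.1%), where *Nanog* was added without replicate 2 and *Fbxo15* without replicate 3. For limma the count, with the percent of all symbols called, was 5 without background correction (25.0%), 5 with median scaling (23.8%), 4 on the deposited signals (23.4%), 5 with an offset of 50 (25.5%), and 7 with a background level from a detection p under 0.05 (29.1%). Without replicate 1, 2, or 3 limma called 4 (24.3%), 5 (23.9%), and 6 (28.0%) of the 10 genes. Without background correction the levels shrank to 2.38 for *Sall4*, 1.83 for *Pou5f1*, 1.42 for *Lin28*, 0.72 for *Dppa5*, and 0.24 for *Nanog*. Levels of different genes depend on their probes and were not ranked.

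**Figure D3:**
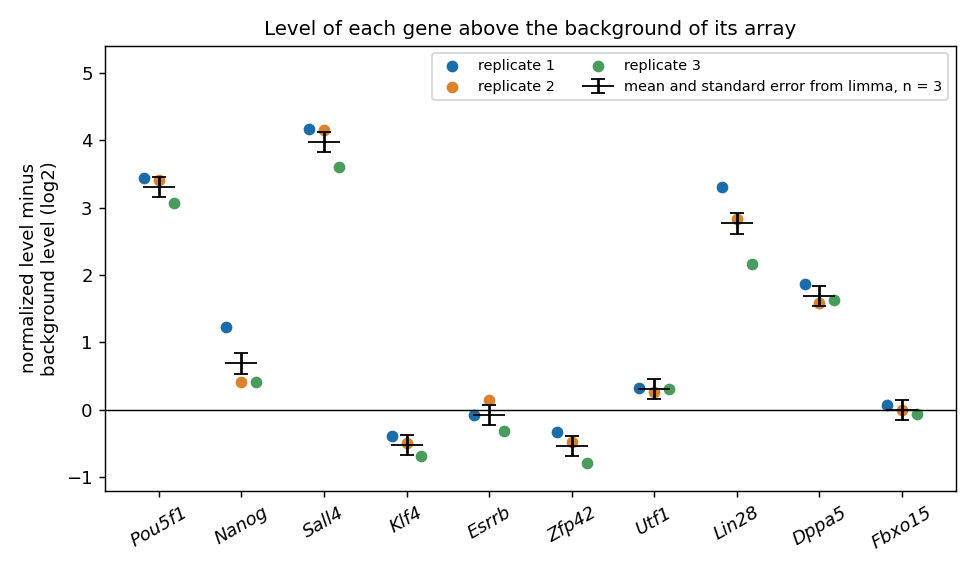
Normalized level minus the background level of the same array (vertical axis, log2) for the 10 genes, with a point per array and the limma mean and standard error (n = 3) in black. *Sall4*, *Pou5f1*, *Lin28*, and *Dppa5* were above 1 on every array, replicate 1 of *Nanog* was apart from the others, and *Utf1*, *Fbxo15*, and *Esrrb* were near 0.

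The wider pluripotency network was also divided. Of 36 further network genes, 17 passed detection on every array, 3 on some, and 16 on none. Among 11 other naive factors, 5 passed, *Tbx3*, *Tfcp2l1* (listed as *Tcfcp2l1*), *Gbx2*, *Stat3*, and *Zfp57*, while *Klf2*, *Klf5*, *Nr0b1*, *Nr5a2*, *Prdm14*, and *Tcl1* passed on no array, although limma called *Klf5*, which has several probes. *Stat3* was the opposite case, as its level of 0.22 was not called by limma (adjusted p = 0.259). *Gbx2* had log2 signals of 11.85, 11.42, and 10.98. *Gbx2*, *Tbx3*, and *Stat3* also have known roles in later patterning and signalling. With a detection p under 0.001 the count of naive factors was 2 of 11, where 17.0% of all symbols passed.

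Of 17 further ES cell transcripts 8 passed. Mean log2 signals over the 3 arrays were 8.20 (SD 0.22) for the let-7 target *Trim71*, 8.63 (SD 0.40) for the ES cell factor *Zscan10*, and 7.74 (SD 0.29) for the RAS family member *Eras*. *L1td1*, *Rif1*, *Phc1*, and *Zfp281* were also among them. *Sox2*, the partner of OCT4, passed on 2 arrays. *Dppa2*, *Dppa3*, *Dppa4*, *Gdf3*, *Tdgf1*, *Fgf4*, and *Jarid2* passed on none. Genes of the formative, postimplantation epiblast passed in 4 of 8 cases. The DNA methyltransferase *Dnmt3b* averaged 11.79 (SD 0.52, n = 3) on the log2 scale and the anterior factor *Otx2* 9.46 (SD 0.21), and *Pou3f1* and *Fgf5* also passed. *Sox3* passed on 1 array, and *Dnmt3a*, *Zic2*, and *Foxd3* on none, although limma called *Zic2*.

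**Figure D4:**
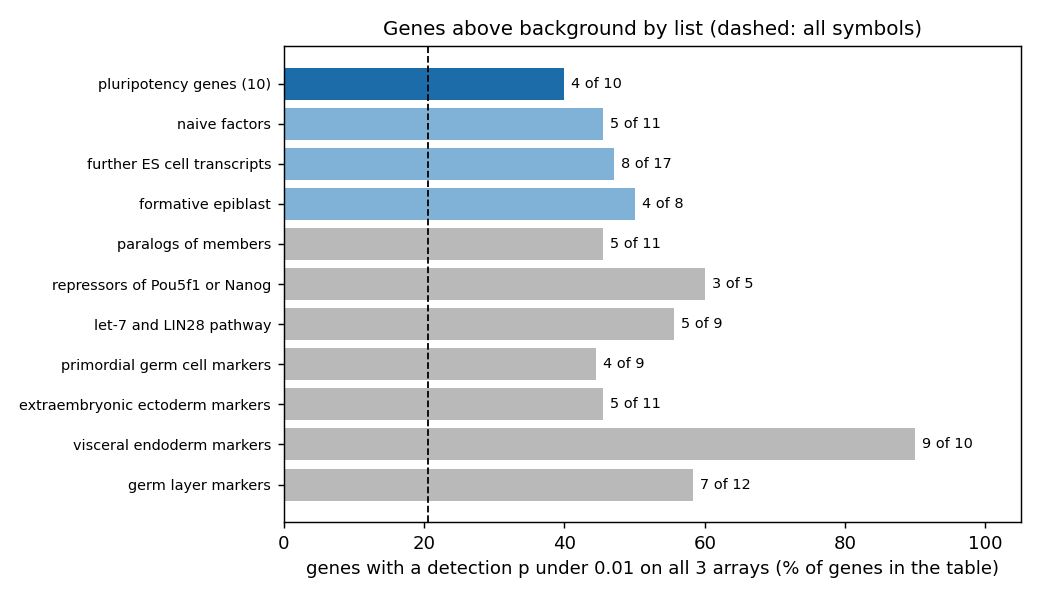
Share of genes in each list above background on every array (horizontal axis, percent of the genes in the table), with the count beside each bar and all symbols (20.6%) as a dashed line. The bar of the pluripotency genes (4 of 10) was near the other network lists, and visceral endoderm markers (9 of 10) were the highest.

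Relatives and regulators of the 10 genes were measured beside them. All 3 paralogs of *Sall4* passed detection on every array, with mean log2 signals of 7.56 (SD 0.24, n = 3) for *Sall1*, 8.35 (SD 0.20) for *Sall2*, and 8.86 (SD 0.25) for *Sall3*. Among 11 paralogs in all, 5 passed, and limma called 8. *Lin28b*, the paralog of *Lin28*, had a detection p of 0.0340, 0.0139, and 0.0252, over the threshold on every array, and limma called it at 0.59 above background (adjusted p = 0.000200). Of 6 known repressors of *Pou5f1* or *Nanog*, 5 were in the table under a matched symbol and 3 passed. *Nr6a1* (GCNF), the nuclear receptor that silences *Pou5f1* in the gastrulating embryo and belongs to the family that reads the nuclear receptor core printed above, had log2 signals of 10.52, 10.23, and 10.42. *Cdx2* had a mean of 9.53 (SD 0.39, n = 3). *Tcf7l1* was matched through its older symbol *Tcf3*, now also the name of another gene, with a mean of 9.96 (SD 0.28, n = 3). *Nr6a1* and *Pou5f1* were thus both above background in the same RNA, which does not tell whether the same cells held both.

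In the let-7 and LIN28 pathway 5 of 9 genes passed, *Dis3l2*, *Dicer1*, *Igf2bp1*, *Igf2bp2*, and *Igf2bp3*. *Igf2bp2*, an mRNA-binding protein gene under let-7 control, averaged 11.39 (SD 0.31, n = 3) on the log2 scale. *Zcchc6*, which encodes a terminal uridylyltransferase acting with LIN28, passed on 2 arrays, and *Zcchc11* and *Hmga2* on none.

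Other cells in the dissected region can hold the same transcripts. Of 9 primordial germ cell markers, 4 passed detection on every array, *Ifitm3*, *Dnd1*, *Alpl* (listed as *Akp2*), and *Tfap2c* (listed as *Tcfap2c*), while *Prdm1*, *Prdm14*, *Dppa3*, and *Nanos3* passed on none. *Kit* passed on 1 array. The summed linear normalized level of the 9 markers was 915 to 1043 over the arrays. Such sums include genes at background and depend on the probes, so they were compared between arrays and not between lists. Of 11 markers of extraembryonic ectoderm and ectoplacental cone, 5 passed, *Cdx2*, *Rhox5*, *Bmp4*, *Ets2*, and *Tfap2c*. Their list had a summed level of 1749 to 2385. *Hand1* passed on 2 arrays, and *Elf5*, *Eomes*, *Ascl2*, *Gcm1*, and *Tpbpa* passed on none. Visceral endoderm markers passed in 9 of 10 cases, with *Afp* on 2 arrays, and their summed level of 8004 to 13047 was highest on replicate 2. The part of these tissues in the signals of the 10 genes was not tested. Of 12 germ layer markers, 7 passed, *T*, *Mixl1*, *Mesp1*, *Tbx6*, *Sox17*, *Cer1*, and *Meox1*, while *Hand2*, *Sox1*, and *Hesx1* passed on none. Several of the listed genes stand in more than 1 list.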

How the data were processed

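The members and gene lists were chosen with earlier results of these data known. The authors deposited, per the file headers, a log2 signal, a number of beads, a standard error over beads on the intensity scale, and a detection p-value per gene symbol for each of the 3 arrays. Signals were not normalized between arrays. Partek is named as the software, and no background correction is given in the sources used here. The median number of beads was 43 to 44. All 10 members are reported, and listed genes are named where they were detected on every array, or without a value where on none. The exceptions, genes detected on some arrays, were named after their values were seen.

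Symbols with 1 probe (22003) had whole bead numbers and detection p-values in whole steps of 1 in 936. For several probes the detection p was taken as that of a sum of probe p-values (normal form from 4 probes), which put 97.4% of values for 2 probes, 98.9% for 3, and 88.2% for 4 on whole steps within 0.02. These numbers of probes are lower limits. The smallest number that fitted both bead numbers and p-values was used for members, and a detection p of 0 leaves it to the beads.

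Signals were corrected with normexp (offset 16) from 1-probe symbols and quantile normalized. The background level was the lowest level of such a symbol with a detection p above 0 and under 0.01. limma 3.58.1 (lmFit, eBayes, one-sided, Benjamini-Hochberg over 30854 symbols, threshold 0.05) in R 4.3.3 tested the difference. Symbols were matched through the RefSeq table of GRCm38.p6. Python 3.11.15, numpy 2.4.6, and pandas 2.3.3 were used. Each alternative is given in the closing section.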

Additional observations from a re-analysis of the deposited data

How the results depend on the processing

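The count of pluripotency genes above background was 4, and became 2 with a detection p under 0.001 and 8 with detection on at least 1 array. The other settings gave 4 to 6, and leaving out each replicate 4 to 5. The 36 network genes gave 17, and 12 to 20 over the alternatives (17 to 18 without a replicate). Of 90 counts of the other lists, 88 stayed within 1.5 times the main count. The exceptions were naive factors at the 0.001 threshold (2 in place of 5) and paralogs by limma (8 in place of 5). The number of genes called by limma was 5, and 4 to 7 over the alternatives (4 to 6 without a replicate), where 23.4% to 29.1% of all symbols were called. The count of 7 came with the 0.05 background level, which called 29.1%. *Sall4*, *Pou5f1*, *Lin28*, and *Dppa5* were called in 8 of 8, *Nanog* in 5, *Utf1* in 3, and *Fbxo15* in 1. The level of *Esrrb*, at -0.08, turned positive with a background level from a detection p under 0.05 (0.16) and without replicate 3 (0.0371), and was -0.19 to 0.0371 without a replicate. The level of *Fbxo15*, at 0.00, turned positive with median scaling (0.0132), on the deposited signals (0.0034), with the 0.05 background level (0.24, the setting that called it), and without replicate 2 (0.0027) or 3 (0.0313), and was -0.0364 to 0.0313 without a replicate. The cause was not tested. No paired analysis was possible because all arrays belong to 1 group. Nearness to background limits *Nanog*, *Utf1*, *Fbxo15*, and *Esrrb*, whose levels lay between -0.08 and 0.69 relative to it on the log2 scale. *Klf4* and *Zfp42* were below it, at -0.52 and -0.54, and are limited as well.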
